A study of Mus musculus with 4 samples.

Results

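A group of 9 genes that astrocytes use to clear glutamate, water and ions was followed: Slc1a2, Slc1a3, Glul, Kcnj10, Aqp4, Aldh1l1, Mlc1, Slc4a4 and Hepacam. They were chosen by gene symbol, with earlier results of these data known, and all 9 were found among the 22609 gene symbols of the count files. Transcripts were counted by RNA sequencing of hippocampi from female mice whose ovaries had been removed 1 week before surgery. Every mouse had 20 min of global cerebral ischemia, in which clips closed both common carotid arteries, and 24 h of reperfusion. The FLOX-control group (2 libraries) is named for the loxP-flanked aromatase gene Cyp19a1. In the GFAP-ARO-KO group (2 libraries), Cre expressed from the Gfap promoter was used to delete Cyp19a1, which encodes the estrogen-making enzyme, in astrocytes, to which the labels describe Cre as limited. No sham group is among the 4 libraries, so a difference between the groups at 24 h cannot be told apart from one that was there before ischemia. The libraries held 27930696 to 34878375 reads assigned to genes. Reads of Cyp19a1 numbered 3 and 2 in FLOX-control libraries against 1 and 9 in GFAP-ARO-KO libraries, which is too few to check the genotype labels. The labels do not say whether the libraries of a group came from separate animals, so p-values measure the spread between these libraries. That spread was above counting noise (chi-square divided by its degrees of freedom was 13.8 for the control pair and 26.0 for the knockout pair). Neurod6, a marker of forebrain pyramidal neurons that does not separate hippocampus from cortex, was present in every library, at 281 and 333 CPM in FLOX-control against 164 and 221 CPM in GFAP-ARO-KO libraries, and fell by 0.67 (adjusted p = 0.0275). Meningeal markers were highest in the second knockout library, as given with the results.

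Astrocytes take up the glutamate that synapses release, mainly through the transporters GLT-1 (Slc1a2) and GLAST (Slc1a3), and glutamine synthetase (Glul) turns it into glutamine, which is handed back to neurons. They also carry away the potassium that active neurons release through the inward rectifier Kir4.1 (Kcnj10), and move water through aquaporin-4 (Aqp4), both of which are concentrated in the endfeet that wrap blood vessels. MLC1 (Mlc1) and GlialCAM (Hepacam) are membrane partners at astrocyte contacts whose human genes are mutated in a leukodystrophy with cysts. NBCe1 (Slc4a4) carries sodium and bicarbonate across the astrocyte membrane, and Aldh1l1, an enzyme of folate metabolism, is a widely used astrocyte marker. Swelling of astrocyte endfeet and loss of glutamate uptake are well known features of brain ischemia.

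In the knockout libraries the water channel gene Aqp4 and the potassium channel gene Kcnj10 were lower, the glutamine synthetase gene Glul and the adhesion gene Hepacam were higher, and the glutamate transporter genes did not pass the test. Aqp4 was 2.63-fold lower and Kcnj10 1.43-fold lower, whereas Glul was 1.41-fold higher and Hepacam 1.27-fold higher. Of the 9 genes 2 rose, 2 fell and 5 did not pass, with edgeR's quasi-likelihood test and a Benjamini-Hochberg adjusted p under 0.05 over all tested genes. All 9 passed the filter on low counts. Among all 15011 tested genes 20.4% were called, 9.39% as higher and 11.0% as lower, so a call by itself was common in this comparison. The median log2 fold change was -0.01 over the 9 genes and -0.00081 over all tested genes. Both knockout libraries lay on the same side of both controls for 7 of the 9 genes, against 64.8% of all tested genes.

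**Figure D1:**
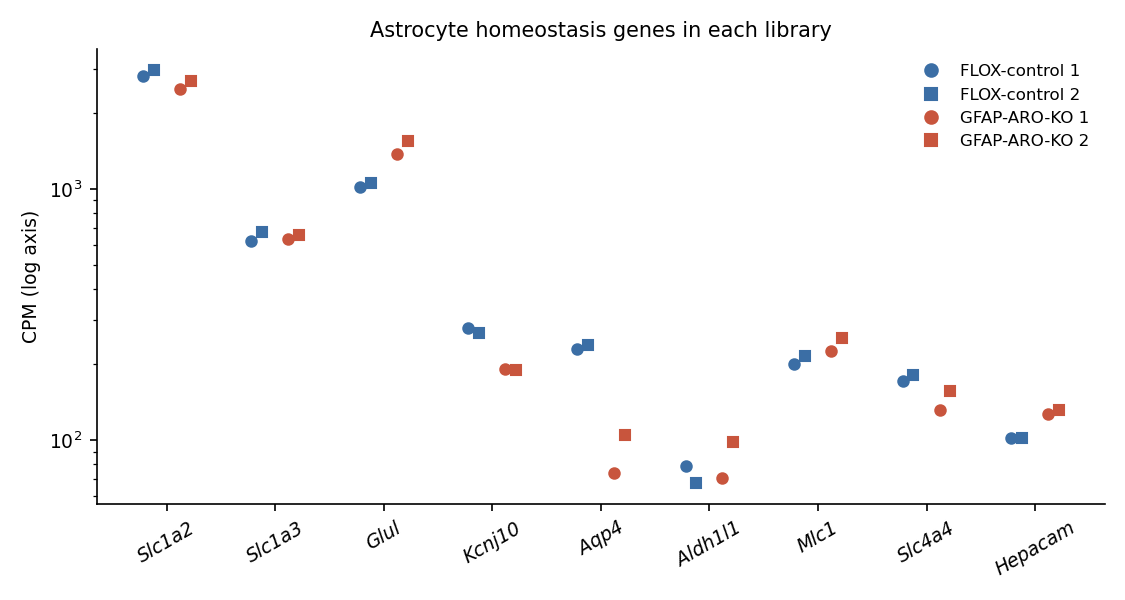
CPM (reads per 1000000 reads assigned to genes, scaled by TMM, on a log axis) of the 9 genes in the 2 FLOX-control libraries (blue) and the 2 GFAP-ARO-KO libraries (red), 1 point per library. The groups stand furthest apart for Aqp4, at 231 and 239.9 CPM against 73.9 and 105 CPM, and overlap for Slc1a3 and Aldh1l1.

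The genes differed widely in abundance, compared here as CPM per kb of exon. In the controls Glul stood first at 312.2 ± 8.68 CPM per kb (SD, n = 2) and Slc1a2 followed at 220 ± 9.14. Slc1a3 at 75.8 ± 4.37 and Mlc1 at 74.3 ± 3.86 did not differ beyond their spread. Kcnj10 came next at 50.6 ± 1.84, followed by Aqp4 at 44.3 ± 1.22 and Hepacam at 30.7 ± 0.105. Slc4a4 at 16.3 ± 0.673 and Aldh1l1 at 16.2 ± 1.83 were lowest and did not differ beyond their spread. In the knockouts Glul stood at 440.3 ± 36.6 CPM per kb and Slc1a2 at 197 ± 9.72, still the first and the second of the 9. Hepacam (38.8 ± 0.839) then stood above Kcnj10 (35.35 ± 0.119), and Aqp4 (16.8 ± 4.15) had a spread that overlapped those of Aldh1l1 (18.6 ± 4.30) and Slc4a4 (13.3 ± 1.66). The level depends on the exon length used: with the longest transcript in place of all exons, Slc1a3 was at 145.9 CPM per kb in the controls.

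Aqp4, the main water channel of the brain, showed the greatest change of the 9. It was measured at 231 and 239.9 CPM (reads per 1000000 reads assigned to genes) in FLOX-control and 73.9 and 105 CPM in GFAP-ARO-KO libraries. Every knockout library was below every control, although the knockout libraries differed by 0.51 on the log2 scale and the controls by only 0.06. Aqp4 fell by 1.40 ± 0.16 on the log2 scale (± SE here and below; adjusted p = 0.00364; 95% interval from -1.78 to -1.01). The fall stayed past the threshold with each library left out in turn, with log2 fold changes from -1.66 without the second knockout library to -1.16 without the first. In a bulk sample fewer astrocytes and less RNA per astrocyte cannot be told apart, here and in all results that follow. The counts are per gene, so the M1 and M23 forms of the channel were not separated. The gene lies on chromosome 18 (15547903 to 15562193, minus strand, mm9).

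Kcnj10, whose channel Kir4.1 sets the potassium conductance and the resting potential of astrocytes, was at 281 and 267 CPM in FLOX-control and 192 and 191 CPM in GFAP-ARO-KO libraries. The libraries within a group lay close together, and the groups did not overlap. Kcnj10 fell by 0.52 ± 0.09 (adjusted p = 0.00983). The size held with a library left out (-0.56 to -0.47), but leaving out a control ended the call, at an adjusted p of 0.0823 for the first and 0.0538 for the second. Kcnj16, whose product Kir5.1 forms mixed channels with Kir4.1, was at 29.4 and 32.6 CPM in FLOX-control and 12.4 and 15.03 CPM in GFAP-ARO-KO libraries. Kcnj16 fell by 1.18 ± 0.15 (adjusted p = 0.00364) and passed with each library left out. Per exon length the level of Kcnj10 was 6.95 and 5.96 times that of Kcnj16 in FLOX-control and 11.3 and 9.23 times in GFAP-ARO-KO libraries. Kcnj10 lies on chromosome 1 (174271341 to 174304216, plus strand, mm9). Oligodendrocytes also transcribe Kcnj10, and 8 of 12 oligodendrocyte markers were lower as well. Their summed level was 4394 and 4143 CPM in FLOX-control and 3537 and 3828 CPM in GFAP-ARO-KO libraries, and their part in the fall of Kcnj10 was not tested.

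Glul, which encodes the enzyme that joins ammonia to glutamate, was the most abundant of the 9 per exon length and rose. It was measured at 1019 and 1060 CPM in FLOX-control and 1380 and 1552 CPM in GFAP-ARO-KO libraries, without overlap between the groups. Glul rose by 0.50 ± 0.09 (adjusted p = 0.013), or by 0.42 to 0.58 with a library left out. Leaving out a control ended the call, at an adjusted p of 0.0834 for the first and 0.0681 for the second. Oligodendrocytes transcribe Glul too, while the oligodendrocyte markers named above were lower. The gene lies on chromosome 1 (155747074 to 155756853, plus strand, mm9). Of the 50-base windows of its longest coding transcript 14.4% also occur elsewhere in the genome, so reads from that share of the transcript can align at several places, and such reads were tallied apart and not counted for a gene. It shares 67 exon bases with 5830403L16Rik on the opposite strand, which had 6 to 34 reads per library.

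Neither glutamate transporter gene passed the test. Slc1a2, the source of most glutamate uptake in the forebrain, was at 2809 and 2979 CPM in FLOX-control and 2502 and 2682 CPM in GFAP-ARO-KO libraries. The knockouts were slightly lower without overlap, but Slc1a2 missed the threshold (log2 fold change -0.16 ± 0.09, adjusted p = 0.222). Its 95% interval, from -0.36 to 0.04, reaches from a lower to a slightly higher level in the knockouts. Slc1a3, the transporter that is strong in cerebellar and immature astrocytes and also present in the hippocampus, was at 621 and 673 CPM in FLOX-control and 633 and 653 CPM in GFAP-ARO-KO libraries. These groups overlapped, and Slc1a3 missed the threshold (log2 fold change -0.01 ± 0.09, adjusted p = 0.957, 95% interval from -0.22 to 0.20). Its sign changed with some settings, to 0.016 on the log2 scale with upper-quartile scaling. Slc1a2 lies on chromosome 2 (102498816 to 102630941, plus strand, mm9) and Slc1a3 on chromosome 15 (8584124 to 8660764, minus strand, mm9).

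Hepacam, which encodes the adhesion protein GlialCAM that brings MLC1 and the chloride channel ClC-2 to astrocyte junctions, was at 102.3 and 101.8 CPM in FLOX-control and 127.2 and 131.1 CPM in GFAP-ARO-KO libraries. The spread within each group was small and the groups did not overlap. Hepacam rose by 0.34 ± 0.09 (adjusted p = 0.038), and its size held with a library left out (0.33 to 0.36). The call was lost without either control (adjusted p = 0.197 and 0.223) or without the second knockout library (adjusted p = 0.0562). Mlc1 was at 200.3 and 216 CPM in FLOX-control and 227 and 254 CPM in GFAP-ARO-KO libraries, again without overlap, but missed the threshold (log2 fold change 0.21 ± 0.10, adjusted p = 0.179, 95% interval from -0.03 to 0.45). The level of Hepacam relative to Mlc1, scaled by exon length, was 0.430 and 0.398 in FLOX-control and 0.472 and 0.435 in GFAP-ARO-KO libraries. Clcn2, the gene of ClC-2, did not pass either (0.13 ± 0.11 on the log2 scale, adjusted p = 0.416). Hepacam lies on chromosome 9 (37174953 to 37194157, plus strand, mm9) and Mlc1 on chromosome 15 (88786314 to 88809437, minus strand, mm9).

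Slc4a4, the sodium and bicarbonate carrier with which astrocytes adjust pH, was at 171 and 182 CPM in FLOX-control and 132 and 157 CPM in GFAP-ARO-KO libraries. Both knockout libraries were lower, but Slc4a4 missed the threshold (log2 fold change -0.29 ± 0.11, adjusted p = 0.106, 95% interval from -0.56 to -0.03 before adjustment). Without the second knockout library its log2 fold change was -0.41. Aldh1l1 was at 79.0 and 67.3 CPM in FLOX-control and 70.4 and 97.8 CPM in GFAP-ARO-KO libraries, where the libraries lay on either side of the first control. It missed the threshold (log2 fold change 0.20 ± 0.17, adjusted p = 0.431, 95% interval from -0.20 to 0.60). Its value turned on the knockout library: the log2 fold change was 0.42 without the first (adjusted p = 0.0221) and -0.04 without the second. An antisense transcript, Gm15756, overlaps 11.1% of the Aldh1l1 exon bases, and without a stated strand setting its reads could not be told apart from those of Aldh1l1. Slc4a4 lies on chromosome 5 (89315843 to 89668678, plus strand, mm9) and Aldh1l1 on chromosome 6 (90436421 to 90550197, plus strand, mm9).

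**Figure D2:**
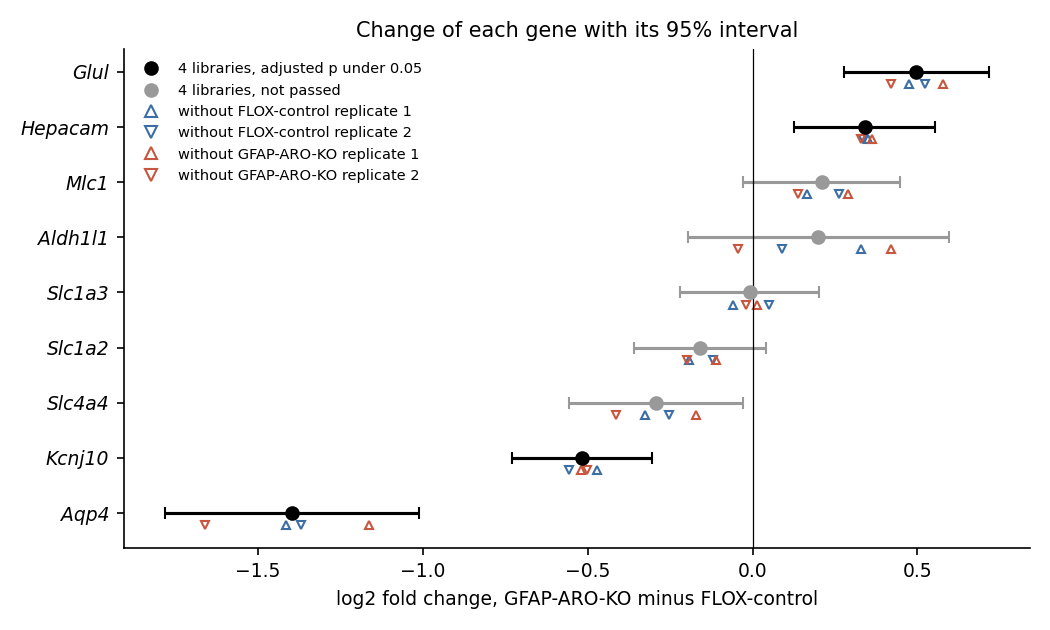
Log2 fold change (GFAP-ARO-KO minus FLOX-control) of the 9 genes, with 95% intervals from the fit of 4 libraries as bars and the values with 1 library left out as open triangles. Aqp4 lies at -1.40 and Glul at 0.50, and the triangles of Aldh1l1 fall on both sides of 0, from -0.04 to 0.42.

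Apart from that of Aqp4, the calls among the 9 genes rested on both controls being present. A group left with 1 library takes its spread from the other group, so the counts below also depend on which pair remains. Without the first control, 1 of the 9 genes was called, against 5.87% of all tested genes. Without the second control it was again 1 of 9, against 5.29% of tested genes, and in both cases that gene was Aqp4. Without the first knockout library 5 of 9 were called, 3 higher and 2 lower, against 31.5% of tested genes. Without the second it was 4 of 9, 1 higher and 3 lower, against 18.1%. The second knockout library stood apart in meningeal and fibroblast markers. Their summed level was 137 and 181 CPM in the controls, 159 CPM in the first knockout and 597.5 CPM in the second, and none of the 15 was at 0 in all libraries. Dcn, the most abundant of them, was at 56.0 and 84.7 CPM in FLOX-control and 66.6 and 103 CPM in GFAP-ARO-KO libraries. Without this library Aqp4 fell by 1.66 and Kcnj10 by 0.50, while Glul rose by 0.42 and Hepacam by 0.33.

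The sequence before the RefSeq start of 3 of the 4 genes that changed is shown, since Kcnj10 fell while Glul and Hepacam rose. Each run gives the 250 bases before the start, 5′ to 3′ on the gene's strand (plus for all 3), in the GRCm38.p6 build, which differs from the mm9 build of the counts. The runs are chr1:172340960-172341209 for Kcnj10, chr1:153899679-153899928 for Glul and chr9:37367356-37367605 for Hepacam. Capitals mark matches, on either strand, to a small set of motifs.

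Kcnj10: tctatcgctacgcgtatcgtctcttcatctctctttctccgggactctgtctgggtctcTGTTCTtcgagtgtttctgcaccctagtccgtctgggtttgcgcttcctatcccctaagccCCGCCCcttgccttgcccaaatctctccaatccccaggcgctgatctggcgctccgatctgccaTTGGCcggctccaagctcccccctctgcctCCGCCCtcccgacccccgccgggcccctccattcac
Glul: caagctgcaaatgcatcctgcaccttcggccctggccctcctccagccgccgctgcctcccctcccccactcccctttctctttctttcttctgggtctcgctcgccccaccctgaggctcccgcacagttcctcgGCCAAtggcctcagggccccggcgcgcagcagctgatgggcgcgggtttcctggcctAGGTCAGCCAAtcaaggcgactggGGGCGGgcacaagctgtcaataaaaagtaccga
Hepacam: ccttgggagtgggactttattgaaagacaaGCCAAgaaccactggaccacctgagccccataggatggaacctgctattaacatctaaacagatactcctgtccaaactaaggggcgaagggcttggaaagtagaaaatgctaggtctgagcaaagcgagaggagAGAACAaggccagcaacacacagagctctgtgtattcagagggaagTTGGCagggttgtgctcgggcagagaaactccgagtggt

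The motifs searched were TTCNNNGAA (STAT factors), TGACGTCA (the cAMP response element), TGANTCA (AP-1), AGGTCA (the core of many nuclear receptor sites, estrogen receptors included), AGAACA (the core of glucocorticoid receptor sites), TTGGC (NFI factors), GGGCGG (Sp1) and ACGTG (hypoxia-inducible factors). Kcnj10 held the glucocorticoid receptor core, the NFI motif and the Sp1 motif. Glul held the nuclear receptor core directly before an NFI motif on the other strand, a further NFI motif and the Sp1 motif. Hepacam held the glucocorticoid receptor core and the NFI motif on each strand. The same motifs also stood before genes that were not called. AGGTCA matched before Aldh1l1 and Slc4a4, and AGAACA before Slc1a3. TTGGC matched before Mlc1, Slc1a2 and Slc4a4, and GGGCGG before Aldh1l1, Slc1a3 and Slc4a4. Of 32851 RefSeq promoter windows of the same length, 41.5% held TTGGC, 32.7% GGGCGG, 16.6% ACGTG, 16.1% AGAACA, 14% AGGTCA, 7.02% TTCNNNGAA, 6.75% TGANTCA and 1.55% TGACGTCA. The STAT, cAMP, AP-1 and hypoxia motifs had no match in the windows of Kcnj10, Glul and Hepacam. The windows of Kcnj10 and Glul were 62.0% and 64.8% G and C, against a median of 52.4% over all windows, and that of Hepacam was 50.4%.

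Ratios within a library do not depend on how libraries are scaled, so each gene was set against Slc1a2 per exon length. Aqp4 stood at 20.3% and 19.9% of Slc1a2 in FLOX-control and 7.32% and 9.70% in GFAP-ARO-KO libraries. Kcnj10 stood at 24.3% and 21.8% in FLOX-control and 18.6% and 17.3% in GFAP-ARO-KO libraries. Both were lower against Slc1a2 in each knockout library than in either control. Glul was at 143% and 141% of Slc1a2 in FLOX-control and 218% and 229% in GFAP-ARO-KO libraries. Hepacam was at 14.4% and 13.5% in FLOX-control and 20.1% and 19.3% in GFAP-ARO-KO libraries, and Mlc1 at 33.5% and 34.0% against 42.6% and 44.5%. These 3 genes were higher against Slc1a2 in each knockout library. So were the uncalled Slc1a3 (34.0% and 34.8% against 39.0% and 37.5%) and Aldh1l1 (8.19% and 6.59% against 8.20% and 10.6%). Slc4a4, also uncalled, was lower (7.42% in both controls against 6.4% and 7.11%). The lack of overlap thus does not set the called genes apart. Per exon length the level of Glul was 7.05 times that of Aqp4 in both controls, and 29.8 and 23.6 times in the knockouts. Against Slc1a3 in place of Slc1a2, Aqp4 was 2.62-fold lower in the knockouts and Glul 1.42-fold higher, and the Aldh1l1 ratios overlapped between the groups. Hepacam was 1.27-fold higher against Slc1a3 (1.41-fold against Slc1a2) and Mlc1 1.16-fold (1.29-fold against Slc1a2). Kcnj10 was 1.43-fold lower against Slc1a3 (1.28-fold against Slc1a2). These ratios are a description and were not tested.

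**Figure D3:**
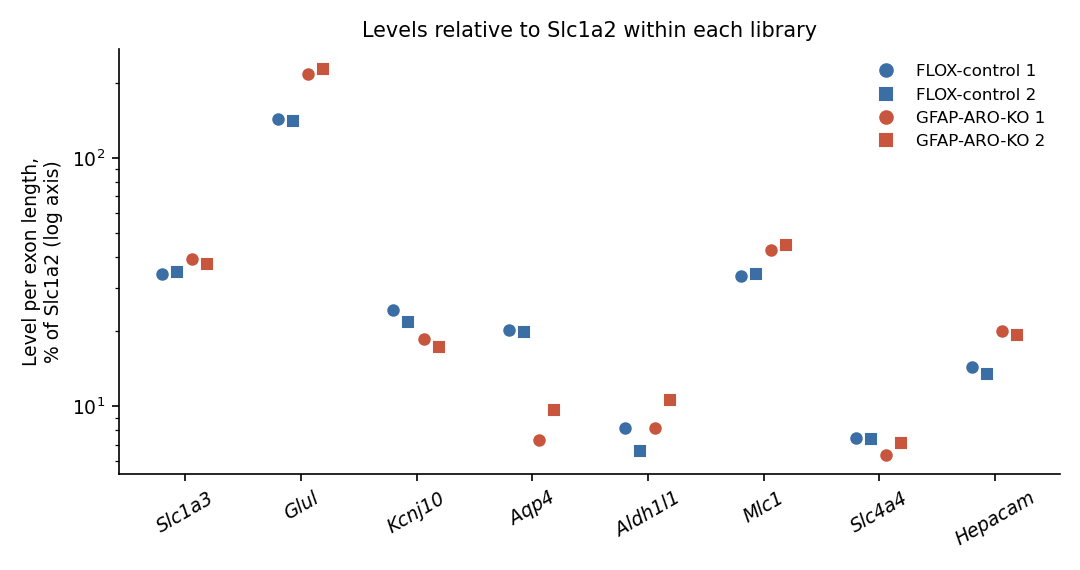
Level of 8 genes per exon length as a percentage of Slc1a2 in the same library (log axis), 1 point per library. Aqp4 drops from 20.3% and 19.9% in the FLOX-control libraries to 7.32% and 9.70% in the GFAP-ARO-KO libraries, while Glul goes from 143% and 141% to 218% and 229%.

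Among genes of related lists, 27 of 90 tested were called, 11 as higher and 16 as lower. That is 30%, against 20.4% of all tested genes. The lists were drawn up with earlier results of these data known. Their shares, here and below, therefore cannot show that these genes were affected more than others. Of 21 tested genes of glutamate and glutamine handling 7 fell, 1 rose and 13 did not pass (38.1% called), with a median log2 fold change of -0.07. Grm3, a metabotropic glutamate receptor that astrocytes also carry, was at 56.0 and 59.1 CPM in FLOX-control and 14.8 and 15.5 CPM in GFAP-ARO-KO libraries, and fell by 1.93 ± 0.12 (adjusted p = 4.03e-04). Slc6a9, the glycine transporter GlyT1, fell by 1.02 ± 0.11 (adjusted p = 0.00212). The others that fell were the glutamine transporter genes Slc38a3 (by 0.71) and Slc38a5 (by 1.97), the neutral amino acid transporter genes Slc1a4 (by 0.85) and Slc7a10 (by 0.86), and the receptor gene Grm5 (by 0.47). Slc38a3 and Slc38a5 carry glutamine out of astrocytes. Without either control library 5 genes of this list fell, and Grm3 and Slc6a9 passed with each library left out.

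Of 18 genes of potassium and chloride transport 2 rose, 1 fell and 15 did not pass (16.7% called, against 20.4% of all tested genes), with a median log2 fold change of 0.05. The 2-pore potassium channel genes Kcnk2 (TREK-1) and Kcnk1 (TWIK-1) rose, by 1.05 ± 0.17 (adjusted p = 0.00739) and 0.60 ± 0.13 (adjusted p = 0.0196). Kcnk2 was at 27.5 and 23.1 CPM in FLOX-control and 45.0 and 60.2 CPM in GFAP-ARO-KO libraries, and Kcnk1 was at 98.0 and 77.3 CPM against 138 and 128 CPM. The gene that fell was Kcnj16, given above. The related inward rectifier gene Kcnj2 and the leak channel gene Kcnk10 did not pass, at -0.34 ± 0.18 (adjusted p = 0.208) and -0.10 ± 0.19 (adjusted p = 0.743). Kcnk2 passed with each library left out, and Kcnk1 lost its call without the second control (adjusted p = 0.134). Atp1b1, a sodium pump subunit and the most abundant of the list, missed the threshold (log2 fold change -0.26 ± 0.08, adjusted p = 0.0601).

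The next list held 19 genes of other water channels, of the complex that anchors aquaporin-4 in endfeet and of other astrocyte membrane and junction proteins. Among them 4 rose, 1 fell and 14 did not pass (26.3% called, against 20.4% of all tested genes). Their median log2 fold change was -0.03. The anchoring genes Dag1 (dystroglycan) and Dmd (dystrophin) did not pass, with log2 fold changes of -0.16 ± 0.11 and -0.13 ± 0.15. Their libraries overlapped between the groups, unlike those of Aqp4. The water channel genes Aqp1, Aqp9 and Aqp11 did not pass either (adjusted p = 0.979, 0.644 and 0.058). Dtnb, a dystrobrevin of the same complex, fell by 0.46 ± 0.11 (adjusted p = 0.0272). The cation channel gene Trpv4, outside that complex, rose by 1.48 ± 0.32 (adjusted p = 0.019) at a low level, from 0.986 and 0.826 CPM to 2.19 and 2.94 CPM. Cxadr, a junction protein also outside it, rose by 1.10 ± 0.25 (adjusted p = 0.0281), and Sntb2 and Lamc1 rose by 0.66 and 0.44. All 5 calls of this list were lost without the first control and again without the second, where Trpv4, Cxadr and Dtnb had adjusted p from 0.0887 to 0.187. Gpr37l1, an astrocyte receptor and the most abundant of the list, missed the threshold at -0.33 ± 0.10 (adjusted p = 0.0607) but passed with DESeq2 (adjusted p = 0.0357). Without the second knockout library its log2 fold change was -0.43.

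Of 17 tested genes of bicarbonate and proton transport 5 fell, 1 rose and 11 did not pass, with a median log2 fold change of -0.20. The share called was 35.3%, against 20.4% of all tested genes. Car2, the main cytosolic carbonic anhydrase of brain glia, was at 232 and 238 CPM in FLOX-control and 98.4 and 93.3 CPM in GFAP-ARO-KO libraries, and fell by 1.29 ± 0.09 (adjusted p = 7.71e-04). Car2 is abundant in oligodendrocytes, whose markers were lower, and their part in its fall was not tested. Car8, a relative without enzyme activity, fell by 1.41 ± 0.22 (adjusted p = 0.0065). The bicarbonate carriers Slc4a3 and Slc4a7 fell by 0.42 and 0.51, and Slc16a4 of the monocarboxylate transporter family fell by 1.14, though not with DESeq2 (adjusted p = 0.126). Car14, a carbonic anhydrase anchored in the membrane, rose by 1.35 ± 0.31 (adjusted p = 0.0259), from 6.15 and 4.28 CPM to 9.86 and 17.1 CPM. With either control left out 2 genes of this list still fell, Car2 and Car8, and Car14 then had adjusted p of 0.0639 and 0.145. Atp2b2, a calcium pump and the most abundant of the list, missed the threshold (log2 fold change -0.05 ± 0.11).

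Of 15 tested genes of folate metabolism, the pathway of Aldh1l1, 3 rose, 2 fell and 10 did not pass, with a median log2 fold change of 0.14. The share called was 33.3%, against 20.4% of all tested genes. Aldh1l2, the mitochondrial relative of Aldh1l1, was at 10.6 and 14.0 CPM in FLOX-control and 3.45 and 2.70 CPM in GFAP-ARO-KO libraries, and fell by 1.99 ± 0.23 (adjusted p = 0.00288). Folh1, a carboxypeptidase that cleaves folate and the neuropeptide NAAG, fell by 2.29 ± 0.16 (adjusted p = 7.39e-04). Shmt1, a cytosolic serine hydroxymethyltransferase, went from 3.44 and 4.16 CPM to 9.86 and 12.4 CPM and rose by 1.54 ± 0.21 (adjusted p = 0.00441). Mthfd1l, a mitochondrial formate-producing enzyme, rose by 0.51. Mthfd1, the most abundant of the list, missed the threshold (log2 fold change -0.11 ± 0.10). Aldh1l2, Folh1 and Shmt1 passed with each library left out.

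**Figure D4:**
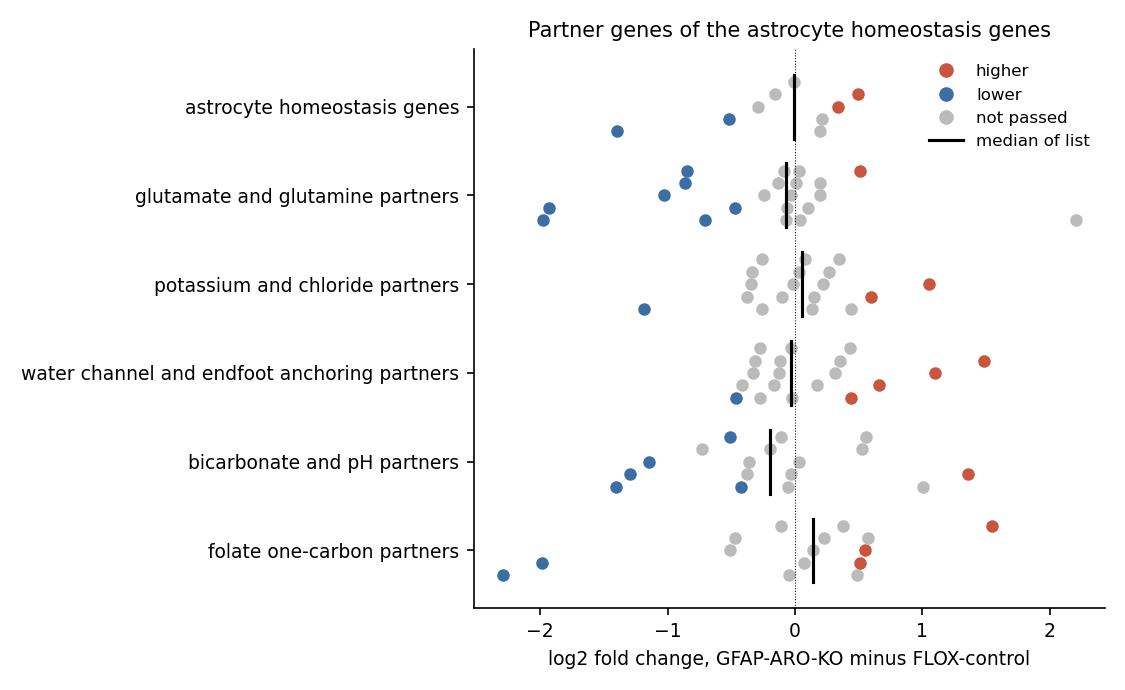
Log2 fold change (GFAP-ARO-KO minus FLOX-control) of the 9 genes and of the tested genes in 5 related lists, 1 point per gene, red where higher and blue where lower at an adjusted p under 0.05, with black bars at the list medians. The medians lie between -0.20 (bicarbonate and pH) and 0.14 (folate), while single genes reach from -2.29 (Folh1) to 1.54 (Shmt1) among those called.

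The astrocyte label of the 9 genes was set beside other astrocyte genes and markers of other cells, whose counts are to be read against the 20.4% of all tested genes that were called, 9.39% as higher and 11.0% as lower. Of 20 listed astrocyte identity genes 19 were tested, of which 4 rose, 4 fell and 11 did not pass, with a median log2 fold change of 0.10. Their summed level was 3985 and 4139 CPM in FLOX-control and 4383 and 4628 CPM in GFAP-ARO-KO libraries, and Apoe, the most abundant, missed the threshold (log2 fold change 0.25 ± 0.09, adjusted p = 0.0851). Of 18 markers of reactive astrocytes 8 were lower and 1 higher, and Gfap fell from 1378 and 1435 CPM to 761 and 709 CPM. Of 15 markers of microglia and macrophages 11 were lower, with summed levels of 605 and 681 CPM in FLOX-control and 343 and 354 CPM in GFAP-ARO-KO libraries. Of 8 markers of oligodendrocyte precursors 5 were lower, at 391 and 416 CPM against 287 and 265 CPM, with Olig1 the most abundant. Of 14 tested markers of neurons 5 were lower, and Camk2a, the most abundant, did not pass (4953 and 5652 CPM against 4674 and 4664 CPM). Markers of endothelium and mural cells (3 of 14 higher, 1 lower, Slco1a4 not passing), choroid plexus (2 of 8 tested higher, Enpp2 not passing) and ependyma (1 of 7 tested lower, Pltp) were also called in part. Of the 8 thalamus and habenula markers 1 was higher (Prkcd, by 0.74) and 1 lower (Slc17a6), with a median log2 fold change of 0.08. Slc17a6, a glutamate transporter gene of thalamic and other subcortical neurons, was at 117 and 111 CPM against 11.1 and 19.7 CPM, and fell by 2.90 ± 0.25 (adjusted p = 0.00177). The 8 markers summed to 217.5 and 224 CPM against 132 and 159 CPM. The 7 without Slc17a6 summed to 101 and 114 CPM against 121 and 140 CPM. Leaving out the only marker called lower favours a higher sum in the knockouts. The second sum therefore cannot show whether the amount of thalamic tissue differed, which was not tested. The part of these cells in the changes of Aqp4, Kcnj10, Glul and Hepacam was not tested.

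Genes whose 4 values ran most like those of the called genes were found by Euclidean distance between centred log2 CPM values over the 4 libraries, among 8541 genes whose mean log2 CPM reached 4. For Aqp4 they were Slco1c1 (distance 0.173), Trf (0.24) and Anxa5 (0.248). Slco1c1, a thyroid hormone carrier of astrocytes and brain endothelium, was at 66.3 and 71.8 CPM in FLOX-control and 23.9 and 28.9 CPM in GFAP-ARO-KO libraries. Trf, which encodes transferrin and is abundant in oligodendrocytes, was at 306 and 357 CPM against 119 and 139 CPM. For Kcnj10 the nearest were Ptpn12 (0.0268), Phb (0.0291) and Tmem101 (0.0342), for Glul Fance (0.0282), Edc4 (0.0311) and Zfp13 (0.0348), and for Hepacam Zfp276 (0.00888), Rpl22 (0.0192) and Mzt2 (0.0197). With 4 libraries such likeness is loose.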

How the data were processed

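The authors deposited raw read counts by gene symbol for each of the 4 libraries. Libraries were made from total RNA of hippocampus and read as single ends of 50 bases, per the labels' protocols. The submitters' processing notes name TopHat2 2.0.8b, HTSeq and the mm9 build, without giving their settings. Each library was run in duplicate and the reads were combined before alignment, per the labels of the series. No source used here gives the strand setting, annotation or HTSeq version. Entries that name no gene (5 tally rows) held 45.17% to 47.3% of entries, mostly alignments at several places (35.73% to 37.35%), and were left out of library sizes and tests.

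Sample titles gave the groups. Low genes were removed with filterByExpr (minimum count 10, minimum total count 15), which left 15011, and CPM was scaled by TMM factors (0.9837 to 1.01). The whole table was fitted with edgeR 4.0.16 under R 4.3.3 (glmQLFit, robust, legacy=FALSE, then glmQLFTest), with Benjamini-Hochberg adjustment over all tested genes and a threshold of 0.05. SE was taken as the size of the log2 fold change over the square root of F, and 95% intervals use the t quantile of the test's degrees of freedom, unadjusted. The steps were tested on simulated counts. Arms with 1 library left were fitted with the spread of the other arm.

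Results were recomputed with RLE or upper-quartile scaling, without the filter on low counts, with a filter of at least 50 reads in at least 2 libraries, DESeq2 1.42.0, limma-voom (limma 3.58.1), legacy estimation, a replicate block, and leaving out each library. Positions and exon lengths come from NCBIM37, the assembly behind mm9, with GENCODE vM1. Windows of 50 bases from the longest coding transcript of each gene were matched exactly to either strand of the genome. Upstream sequences are RefSeq's, in GRCm38.p6; 8 of the 9 genes matched by symbol.

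The genes, the lists and the rules were chosen with earlier results of these data known. The text names the 9 genes; of each related list the 2 with the smallest p in each direction and the most abundant; the most abundant marker of each cell type where its list is described; and the 3 nearest genes to each called gene. Other list members, such as Slc38a3, Slc38a5, Slc1a4, Slc7a10, Grm5, Dag1, Dmd, Dtna, Sntb2, Lamc1, Slc4a3, Slc4a7, Slc16a4, Mthfd1l, Clcn2, Kcnj2, Kcnk10, Aqp1, Aqp9, Aqp11, Prkcd, Neurod6, Gjb6, Id4, Sox9, Clu, Slc7a11 and Slc1a5, were named after their values were seen. Some genes that this rule would name are not reported here.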

Additional observations from a re-analysis of the deposited data

How the results depend on the processing

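Over 12 alternatives Aqp4 kept its direction and its call. The number of genes past the threshold was 3061, 2867 to 3194 under the 8 alternatives that keep all 4 libraries, and 813 to 4821 with a library left out. Of the 9 genes 4 passed with all libraries, and 1 to 5 with a library left out. Of the related genes 27 passed, and 13 to 39 with a library left out, while 11 of the 27 passed under every alternative. With a library left out, log2 fold changes ran from 0.42 to 0.58 for Glul, -0.56 to -0.47 for Kcnj10, 0.33 to 0.36 for Hepacam, -0.41 to -0.17 for Slc4a4, -0.044 to 0.42 for Aldh1l1 and -0.059 to 0.049 for Slc1a3. They ran from -0.20 to -0.11 for Slc1a2 and from 0.14 to 0.29 for Mlc1. Slc1a3, near 0 throughout, was at 0.016 with upper-quartile scaling and at 0.0082 with the stricter filter. Slc16a4 did not pass with DESeq2 (adjusted p = 0.126). Among genes that were not called, Dmd ran from -0.29 to 0.057, Atp2b2 from -0.18 to 0.069 and Dcn from -0.068 to 0.598. The cause was not tested.

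With the replicate number as a replicate block, Hepacam stood at 0.34 on the log2 scale and lost its call (adjusted p = 0.0574), 3194 genes passed, and no other of the 9 genes changed its call. Taken over 15011 genes, same-numbered libraries did not deviate together (correlation of deviations from the group means -0.0057). With 2 libraries per group this cannot exclude a factor shared by number that acts on some genes. Whether same-numbered libraries share more than a number was therefore not settled. Reads that align at several places were not counted, which limits Glul most among the 9 genes.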

Other observations

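The knockout libraries differed widely from each other in the transcripts of some amino acid transporters. Slc7a11, the cystine and glutamate exchanger xCT, was at 36.3 and 38.6 CPM in the controls, and at 15.9 CPM in the first knockout library and 61.5 CPM in the second, on either side of both controls (log2 fold change 0.03 ± 0.68, adjusted p = 0.979). Slc1a5, a neutral amino acid transporter of the same family as Slc1a2, was at 1.73 and 1.96 CPM in FLOX-control and 4.19 and 13.3 CPM in GFAP-ARO-KO libraries, above both controls in each (log2 fold change 2.21 ± 0.64, adjusted p = 0.0671). The second knockout library is the one with the highest meningeal and fibroblast markers, at 597.5 CPM in sum, and their part in these values was not tested.

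Among the astrocyte identity genes, changes went in both directions as they did among the glutamate, water and ion genes. Gjb6, the gene of the astrocyte connexin 30, rose from 46.6 and 47.1 CPM to 84.0 and 119 CPM, and Id4, an inhibitor of helix-loop-helix transcription factors, rose from 13.8 and 15.4 CPM to 27.0 and 29.6 CPM. Slco1c1 fell by 1.39 ± 0.13 (adjusted p = 0.00133), and Sox9, a transcription factor of astrocytes, fell from 27.8 and 31.3 CPM to 20.8 and 21.0 CPM (adjusted p = 0.0302). Clu, a secreted chaperone, was at 1099 and 1103 CPM in FLOX-control and 1108 and 1096 CPM in GFAP-ARO-KO libraries.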
